A study of Mus musculus with 16 samples.

Results

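Mouse embryonic stem (ES) cells that received doxycycline together with A-MYB were compared with cells of the same line that received neither. The comparison used 4 libraries, chosen by their treatment labels, of the 16 samples in the series: 2 labelled Dox+,A-MYB and 2 labelled Dox-. They are called Dox + A-MYB and control cells here. Another 4 RNA-seq libraries, 2 of cells given doxycycline alone (Dox) and 2 of cells with A-MYB alone (A-MYB), entered the same fit and are quoted beside the members where they bear on them. Every group was made from J1 ES cells on a 129S4/SvJae background at passage 36, sampled at day 3 and grown without feeder cells in serum medium with LIF and the 2i inhibitors PD0325901 and CHIR99021. All of them, controls included, carry a transgene written Tn(dCas9-VPR/RLTR10B2-gRNA-DsRed). Doxycycline was given at 1 µg/ml. No group used here received doxycycline without the activator or carried another guide RNA, so an effect of the drug cannot be told apart from that of the activator. The labels do not say from what construct A-MYB was expressed. RNA came from wells of a culture plate, and nothing says that replicates were separate experiments, so p-values measure only the spread between these wells, which may be technical.

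The dCas9-VPR protein is a Cas9 that cannot cut, fused to transcriptional activation domains, and a guide RNA brings it to chosen DNA. RLTR10B2 is a family of long terminal repeats left by endogenous retroviruses, of which many copies lie scattered through the mouse genome. A-MYB, encoded by Mybl1, is a transcription factor of male germ cells that switches on meiotic and piRNA pathway genes in pachytene spermatocytes. ES cells in 2i and LIF are held in naive pluripotency, rely heavily on glycolysis and already transcribe part of the germline programme at a low level.

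The 8 ES cell libraries held 26995317 to 33771487 counts in genes. At least 1 count was found for 16132 and 16027 genes in the control libraries and for 17602 and 17554 in the Dox + A-MYB libraries. Reads assigned to no gene were 7.28% and 7.34% of all reads in control and 9.43% and 8.80% in Dox + A-MYB libraries; their part in the results was not tested. The ES cell label held: the 8 defining markers, Pou5f1, Sox2, Nanog, Zfp42, Esrrb, Klf4, Dppa5a and Sall4, lay between 185 and 1378 CPM (counts divided by a library size corrected for composition) in both Dox + A-MYB libraries.

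With both treatments, of the 14664 genes that passed the filter on low counts, 4906 rose and 4462 fell, which is 33.5% and 30.4% (edgeR quasi-likelihood test, Benjamini-Hochberg adjusted p under 0.05). By at least 2-fold, 2149 genes rose (14.7%) and 936 fell (6.38%). By fitted fold change the increases were the larger ones: 533 genes rose at least 8-fold and 36 fell at least 8-fold. The median log2 fold change of the 2-fold sets was 1.94 and -1.39. The genes tested include 83 with 0 counts in control, where the fitted value is no bound. For some of them counting shows less than an 8-fold rise, so 533 may be too high. The 2-fold increases came from lower levels than the 2-fold decreases. The median control level was 0.724 CPM in the first set and 17.0 CPM in the second. The summed level of the first set went from 11728 to 33942 CPM, and that of the second from 103388 to 38270 CPM. The balance of directions depended on the scaling: 52.4% of the calls were increases, against 51.0% with DESeq2 size factors and 71.3% with total counts, where the median log2 fold change of all genes moved from 0.05 to 0.28.

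**Figure D1:**
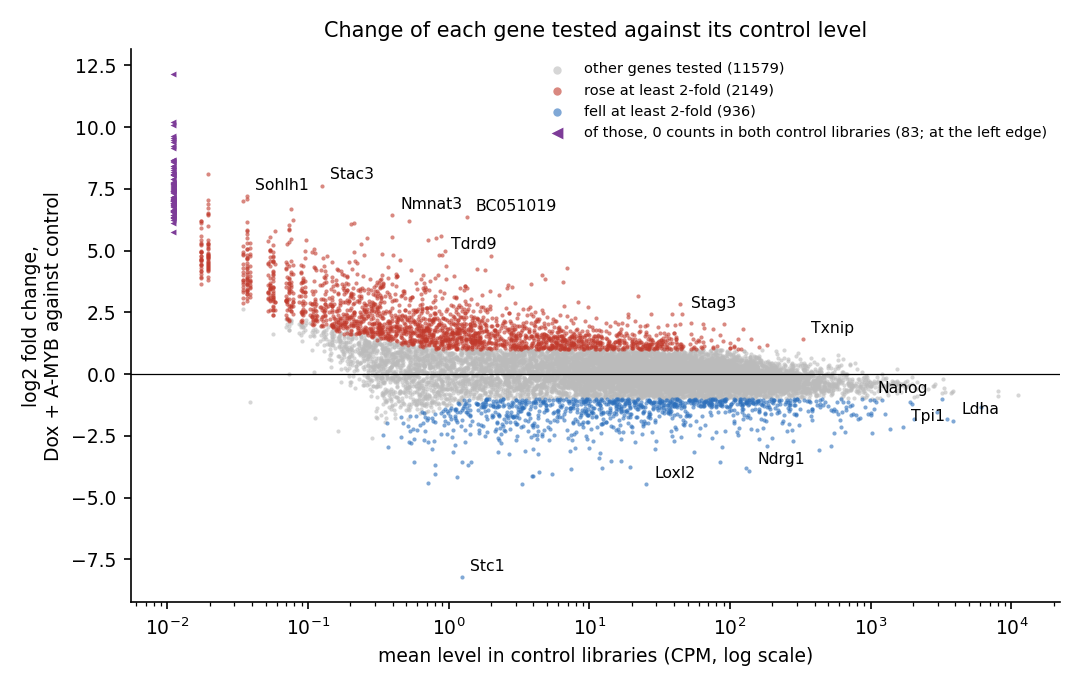
Each point is a gene tested, with its mean control level in CPM on a log axis and its log2 fold change in Dox + A-MYB against control cells on the vertical axis; red points rose and blue points fell at least 2-fold, and genes at 0 in control are drawn at the left edge, where the fitted fold change depends on the prior count and is no bound. The 2149 increases lie mostly at low control levels, and the 936 decreases reach up to the most abundant glycolytic genes.

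Mybl1 itself (gene ID 17864, chr1:9667407-9700439, GRCm38.p6) stood at 8.38 and 6.92 CPM in control and at 19.9 and 16.6 CPM in Dox + A-MYB libraries, a log2 fold change of 1.25 (SE 0.14, adjusted p = 2.36e-08). Its levels in Dox + A-MYB libraries lay beside those with A-MYB alone, 22.03 and 17.8 CPM, and above those with Dox alone, 10.99 and 10.2 CPM. The counts do not separate the cell's own gene from an added copy, so the value checks the label only in part.

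Genes that were silent in control were switched on in larger number with both treatments than in either single-treatment group. Of 6676 genes with 0 counts in both control libraries, 87 had at least 10 counts in both Dox + A-MYB libraries, against 4 in both Dox libraries and 0 in both A-MYB libraries. The mirrored count, genes with at least 10 counts in both control libraries and 0 in both Dox + A-MYB libraries, was 1. At a minimum of 1 count in both libraries the numbers were 824, 226 and 193, and the mirrored count with both treatments was 40. Of the 87 genes, 86 were higher in both Dox + A-MYB libraries than in any Dox or A-MYB library, and 3 had 0 counts in all 4 of those. The levels were low: 22 of the 87 reached a mean of 1 CPM, and their median was 0.589 CPM. A count of 0 allows up to 0.0549 CPM in the control group (3 counts over both libraries, counting error only), and the lowest fold among the 87 was at least 5.62-fold. The filter kept 83 of the 6676 genes; since a gene at 0 passes only through the groups where it is detected, their test adds nothing to this count. RNA from a few cells with a high level and from many cells with a low level cannot be told apart in these bulk libraries, here or in the results that follow.

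Slc13a3, a sodium-dependent dicarboxylate transporter (gene ID 114644, chr2:165405295-165473197), was the most abundant of the silent genes. It had 0 counts in both control and both A-MYB libraries, 4.82 and 4.36 CPM in Dox libraries, and 20.0 and 17.1 CPM in Dox + A-MYB libraries, at least 338-fold higher than control. It was thus present with Dox alone and about 4 times as high with both. Serpina3c, a serine protease inhibitor, followed the same order, with 0 in control and A-MYB, 1.94 and 1.07 CPM in Dox and 4.38 and 5.28 CPM in Dox + A-MYB libraries (at least 87.9-fold). Defb36, a beta-defensin, was also detected with Dox alone, at 1.24 and 1.89 CPM with Dox and 2.22 and 2.76 CPM with both.

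Slc13a3 promoter, shown because this gene had the highest level of all genes silent in control (RefSeq, GRCm38.p6, chr2:165473148-165473447, minus strand, 250 bases before and 50 after the start site); neither AACGG, the core of the site that MYB proteins bind, nor its reverse complement is in this window, so that no letters are in capitals:
Slc13a3: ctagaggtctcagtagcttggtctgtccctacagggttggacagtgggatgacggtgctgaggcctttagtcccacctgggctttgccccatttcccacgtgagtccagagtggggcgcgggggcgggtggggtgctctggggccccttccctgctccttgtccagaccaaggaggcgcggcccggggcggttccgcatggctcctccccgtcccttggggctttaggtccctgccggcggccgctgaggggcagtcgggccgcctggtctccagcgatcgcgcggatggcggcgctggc

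Several other silent genes were much lower with either treatment alone. Mybphl, a relative of the muscle myosin-binding proteins, had 0.0909 and 0.0687 CPM with Dox, 0.0365 and 0.234 CPM with A-MYB, and 4.70 and 4.21 CPM with both (at least 81.2-fold above control). Cplx3, a complexin that regulates vesicle fusion at ribbon synapses, had at most 0.303 CPM in any single-treatment library and 3.15 and 3.47 CPM with both. Slc18a2, the vesicular monoamine transporter of neurons, had at most 0.241 CPM and then 2.72 and 3.09 CPM. In each of these genes both Dox + A-MYB libraries lay far above the other 6. Tshz2, a zinc finger transcription factor, Nr2e1, a nuclear receptor of neural stem cells, and Gcm1, a regulator of placental trophoblast, were at least 51.2-fold, 30.2-fold and 29.8-fold higher than control. Gcm1 was also detected with Dox alone, at 0.424 and 0.619 CPM beside 1.29 and 1.99 CPM with both. Cyp3a57, a cytochrome P450, was at least 43.1-fold higher, and the predicted genes Gm10471 and Gm1110 at least 56.5-fold and 30.3-fold. The 87 genes comprised 80 protein-coding genes and 7 long noncoding RNAs (lncRNAs).

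**Figure D2:**
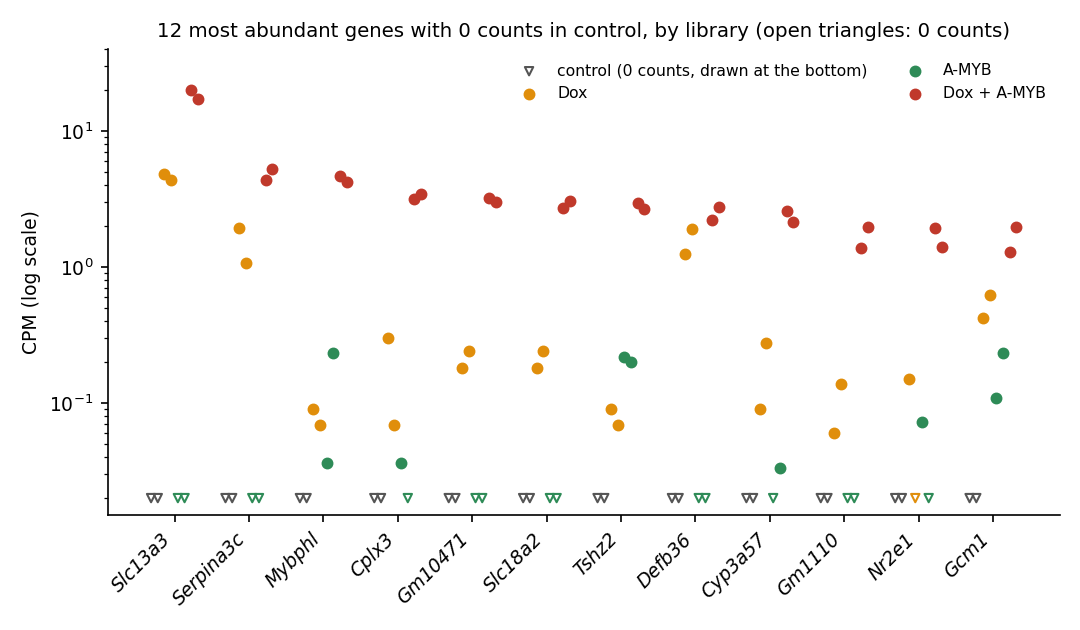
CPM on a log axis of the 12 most abundant genes with 0 counts in control, 1 point per library, with open triangles at the bottom for 0 counts. Dox + A-MYB points lie highest for every gene, from 1.29 CPM for Gcm1 to 20.0 CPM for Slc13a3, and the Dox points come nearest to them for Defb36.

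The promoters of switched-on genes were poorer in CpG than those of genes tested, but richer than those of silent genes that were not detected. RefSeq lists a promoter for 74 of the 87 genes, with a median ratio of observed to expected CpG of 0.280, against 0.179 for 4652 silent genes that were not detected and 0.748 for 11535 genes tested. The letters AACGG, on either strand, were in 13.5% of the 74 promoters, in 10.6% of those of the silent genes not detected, in 23.3% of the promoters of genes tested and in 19.23% of all 17722 promoters matched. Among genes that rose at least 2-fold the share was 20.7%. A match describes the letters and not a bound site.

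The only gene of the mirrored count, named after its values were seen, was Stc1, a secreted glycoprotein hormone. Its counts were 29 and 38 in control, 12 and 10 with Dox, 32 and 19 with A-MYB, and 0 and 0 with both. It was at least 28.1-fold lower with both treatments (floor of 3 counts over both Dox + A-MYB libraries).

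The share of genes that rose at least 2-fold was highest among low genes, while the number that rose by any size was nearly even over the lower groups. To keep the ranking apart from the comparison, genes with at least 10 counts in each of the 4 Dox and A-MYB libraries were divided into 5 groups of nearly equal size by their mean level in those libraries. In the lowest group, from 0.369 to 4.27 CPM, 29.4% of 2589 genes rose at least 2-fold and 9.97% fell. In the highest group, from 101 to 9205 CPM, 0.734% rose and 6.22% fell by as much. Without a fold limit 949, 944, 941, 762 and 517 genes rose in the 5 groups, from the lowest to the highest. On average, genes of the lowest group stood at 1.95 and 1.94 CPM in the control libraries, 1.83 to 1.86 CPM in the 4 single-treatment libraries, and 2.85 and 2.88 CPM in the Dox + A-MYB libraries. Of 261 lncRNAs in this set 89 rose at least 2-fold (34.1%), beside 1241 of 12499 protein-coding genes (9.93%); without a fold limit 112 and 3950 rose. Within the lowest group the 2-fold shares were 34.3% and 29.5%, and in the next group 25.4% and 13.4%.

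**Figure D3:**
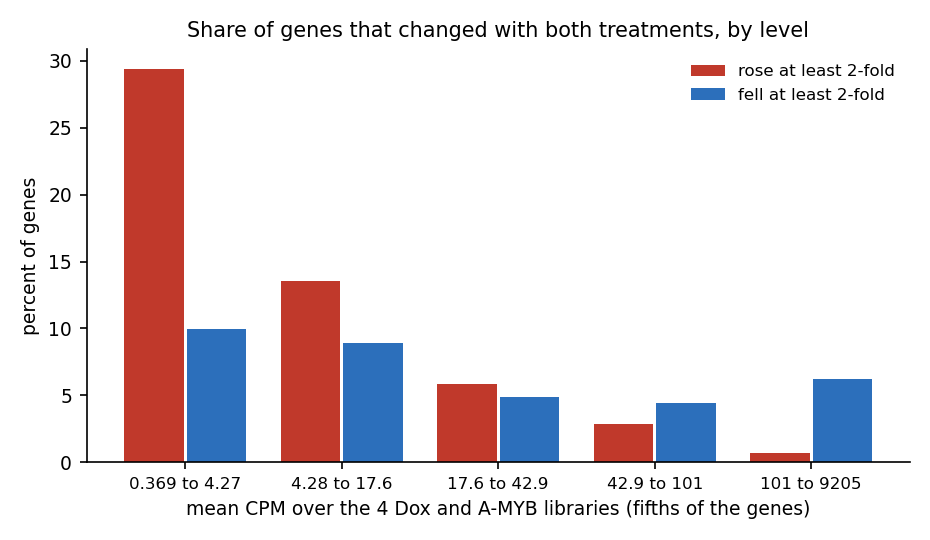
Percent of genes that rose (red) or fell (blue) at least 2-fold in Dox + A-MYB against control cells, for 5 level groups of the 12941 genes with at least 10 counts in each Dox and A-MYB library, ordered by their mean CPM in those libraries. The share that rose drops from 29.4% to 0.734%, while the share that fell stays between 4.40% and 9.97%.

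Among genes with a count in control, the largest increases included genes known from muscle, germ cells and immune cells. Stac3, a component of the excitation-contraction machinery of skeletal muscle (gene ID 237611, chr10:127501617-127508823), stood at 0.173 and 0.0777 CPM in control and 23.7 and 28.5 CPM in Dox + A-MYB libraries (log2 fold change 7.63, SE 0.28, adjusted p = 5.92e-18). Dox alone brought it to 7.21 and 8.18 CPM, and A-MYB alone to 0.329 and 0.434 CPM. Nmnat3, which makes NAD, went from 0.485 and 0.311 to 33.6 and 37.1 CPM (log2 fold change 6.44, SE 0.20, adjusted p = 2.81e-19). BC051019, an uncharacterised gene on chromosome 7, went from 0.970 and 1.75 to 103 and 118 CPM (log2 fold change 6.36, SE 0.15, adjusted p = 5.84e-21). Both already rose with Dox alone, by a log2 of 5.39 and 4.55.

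Sohlh1, a transcription factor of spermatogonia and early oocytes (gene ID 227631, chr2:25842995-25847248), stayed low with each treatment alone. It stood at 0.0346 and 0.0389 CPM in control, 0.212 and 0.241 CPM with Dox, 0.0365 and 0.267 CPM with A-MYB, and 6.13 and 5.99 CPM with both. The ratio of both treatments to control was 166 (exact 95% counting interval 45.5 to 1372). Cd247, a chain of the T cell receptor complex, likewise had at most 0.475 CPM with either treatment and 5.67 and 5.52 CPM with both, a ratio of 153 (42.0 to 1266). Ccl22, a chemokine, reached 5.72 and 6.44 CPM from 0 and 0.0389 CPM, a ratio of 332 (59.3 to 13144). Klrb1a, a receptor of natural killer cells, rose by a log2 of 6.69. Svs4, a seminal vesicle protein, Cyp1b1, a cytochrome P450, and Lypd1 completed the 10 largest, with ratios of 162 (28.7 to 6413), 145 (39.8 to 1199) and 145 (25.6 to 5746). The groups did not overlap in any of these 10 genes, a condition of the rule that named them.

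Among the genes that rose at least 2-fold, the 8 largest gains in absolute level were in genes that control cells already expressed. Txnip, an inhibitor of thioredoxin that also restrains glucose uptake, went from 315 and 345 CPM to 880 and 882 CPM (log2 fold change 1.42, SE 0.06, adjusted p = 6.56e-17). Gm11974, which RefSeq lists as the small nucleolar RNA host gene Snhg15, went from 46.4 and 42.3 CPM to 281 and 352 CPM (log2 fold change 2.83). Taf1d, a subunit of the RNA polymerase I selectivity factor, went from 93.2 and 87.5 CPM to 396 and 335 CPM (2.02). Stag3, a cohesin subunit specific to meiosis (gene ID 50878, chr5:138272514-138312397), went from 48.1 and 43.4 CPM to 244 and 245 CPM (2.42, adjusted p = 2.69e-19). The other 4 were Klf10, a zinc finger factor, Hexa, a lysosomal hexosaminidase subunit, Gtf2h1, a subunit of the transcription factor TFIIH, and the noncoding 2410006H16Rik, with log2 fold changes of 1.41, 2.04, 1.17 and 1.83. Each of these 8 genes was at an intermediate level with Dox alone and with A-MYB alone.

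Most of the genes of meiosis and of the piRNA pathway that were tested rose. Of 31 meiotic prophase genes tested, 22 rose, 17 of them at least 2-fold, and 6 fell. Over all genes tested 33.5% rose, 14.7% at least 2-fold, and 30.4% fell. The median log2 fold change of the 31 was 1.25, against 0.05 over all genes tested. Several members were low in control. When all genes tested were ranked by level in the Dox and A-MYB libraries and divided into 5 groups, 41.4% of the lowest group rose at least 2-fold. In the next group 19.9% did. Taf7l, a germ cell subunit of the general transcription factor TFIID, went from 2.53 and 2.64 CPM to 27.2 and 31.4 CPM (edgeR adjusted p = 4.01e-16). Tex101, a surface protein of germ cells, went from 1.11 and 1.28 CPM to 11.7 and 14.7 CPM (3.46), and Msh4, which stabilises crossover intermediates, from 0.796 and 0.544 CPM to 9.32 and 8.16 CPM (3.69). Every one of these genes was at least 3 times as high in both Dox + A-MYB libraries as in any other library.

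Other members of the meiotic programme moved less evenly. Sycp1 and Sycp3, parts of the synaptonemal complex that joins homologous chromosomes, rose by a log2 of 3.51 and 2.27. Mei1 rose from 0.0346 and 0.0389 CPM, 1 count in each control library, to 2.19 and 2.28 CPM, a ratio of 61.1 (16.6 to 509). Hormad1 and Tex15, which act in chromosome pairing and break repair, rose by 1.30 and 1.18, but their levels with A-MYB alone were about as high: Hormad1 stood at 29.4 and 24.7 CPM with A-MYB and at 29.6 and 22.4 CPM with both. The genes that fell include Stra8, the trigger of meiotic entry, from 4.78 and 5.05 to 2.37 and 3.17 CPM, and Ldhc, the lactate dehydrogenase of sperm, from 3.88 and 3.03 to 1.58 and 1.16 CPM. Spo11, which makes meiotic DNA breaks, and Meiob were too low to be tested, and Dmc1 did not pass (log2 fold change 0.48).

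Msh4 promoter, shown as the promoter of a named meiotic gene that holds the MYB core (RefSeq, GRCm38.p6, chr3:153904842-153905141, minus strand; capitals mark AACGG read on the other strand, CCGTT, 43 bases after the start site):
Msh4: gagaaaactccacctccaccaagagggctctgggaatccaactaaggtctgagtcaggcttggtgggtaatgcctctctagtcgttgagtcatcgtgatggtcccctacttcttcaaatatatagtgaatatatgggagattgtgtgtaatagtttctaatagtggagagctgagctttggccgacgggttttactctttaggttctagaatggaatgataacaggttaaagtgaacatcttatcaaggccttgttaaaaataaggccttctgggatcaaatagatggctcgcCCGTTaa

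AACGG or its reverse complement was in 12 of the 30 meiotic promoters listed, beside 23.3% of the promoters of all genes tested.

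Of 20 piRNA pathway genes tested, 12 rose, 8 of them at least 2-fold, and 2 fell, with a median of 1.00. Over all genes tested 33.5% rose and 14.7% rose at least 2-fold. Among 5 groups of all genes tested, ranked by level in the Dox and A-MYB libraries, 41.4% of the lowest and 19.9% of the next rose at least 2-fold. Tdrd9, a helicase of the pathway (gene ID 74691, chr12:111971488-112068854), went from 0.519 and 1.28 CPM to 26.3 and 23.3 CPM (log2 fold change 4.81, SE 0.25, adjusted p = 3.75e-13); with Dox alone it stood at 3.57 and 2.61 CPM and with A-MYB alone at 3.69 and 2.67 CPM. Piwil2, a PIWI protein that binds piRNAs, went from 12.2 and 11.3 CPM to 40.8 and 41.1 CPM (1.80), and Ddx4, the germ cell helicase VASA, from 12.8 and 13.6 CPM to 38.4 and 34.7 CPM (1.47). Fkbp6, a co-chaperone of the pathway, rose by a log2 of 1.20, Mov10l1, the helicase that processes piRNA precursors, by 1.75 and Tdrd1, a tudor scaffold, by 3.55. Piwil1, the PIWI protein of pachytene cells, stood at a mean of 1.05 CPM in control and 1.93 CPM with both treatments and did not pass.

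Earlier and later germ cell stages were mixed. Of 18 genes of spermatogonia and meiotic entry tested, 9 rose and 5 fell (median 0.29): besides Sohlh1, the X-linked Rhox13 rose from 6.68 and 5.52 to 20.1 and 22.7 CPM, while Kit, a receptor tyrosine kinase, fell from 280 and 292 to 95.4 and 89.3 CPM and Etv5 from 485 and 513 to 323 and 316 CPM. Of 28 spermatid genes 9 were abundant enough to be tested, of which 4 rose and 1 fell. Akap3 among these, like Sohlh1 above, passed the filter on low counts only through the Dox + A-MYB libraries. Their rises therefore add nothing to the counts of their lists. The protamines Prm1 and Prm2 and the transition protein Tnp1 had 0 counts in all control and Dox + A-MYB libraries. Akap3, of the sperm fibrous sheath, rose from 0.0346 and 0 to 0.818 and 0.386 CPM, and Tekt1, a tektin of the axoneme, from 13.9 and 10.6 to 18.8 and 19.9 CPM; Odf2, which fell by a log2 of 0.36, did not pass under total counts scaling. Of 14 flagellum and cilium genes 5 rose and 1 fell, where 33.5% of all genes tested rose and 30.4% fell. Rsph4a, of the radial spoke head, rose from 0.208 and 0.117 to 3.13 and 3.06 CPM, and Rfx2, a transcription factor of ciliogenesis, fell from 63.7 and 69.3 to 36.8 and 33.2 CPM. The rise of Rsph9, also of the radial spoke, did not pass without control replicate 1 (adjusted p = 0.0536). Without control replicate 2, 3 flagellum and cilium genes rose.

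Glycolysis and the hypoxia response fell nearly in full. Of 28 genes tested, 27 fell, 26 of them at least 2-fold, and 0 rose, where 6.38% of all genes tested fell at least 2-fold. The median log2 fold change was -1.90, against -0.48 with Dox alone and -0.37 with A-MYB alone, and the list took 2.51% and 2.56% of all gene counts in control and 0.920% and 0.977% in Dox + A-MYB libraries. Of the 8 largest losses in level among genes that fell at least 2-fold, 5 were glycolytic; the other 3 were Tubb5, a beta-tubulin, Pabpc1, a poly(A)-binding protein, and Hspa8. Pkm, pyruvate kinase, fell from 6042 and 6083 CPM to 2297 and 2490 CPM, and Ldha, lactate dehydrogenase, from 3893 and 3784 CPM to 984 and 1100 CPM (log2 fold change -1.88, SE 0.06, adjusted p = 7.48e-19). Aldoa, aldolase, Pgk1, phosphoglycerate kinase, and Tpi1, triosephosphate isomerase, fell by a log2 of 1.83, 1.83 and 2.15.

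Other members of this list, named for a large fold or a small p, fell further than the enzymes above. Ndrg1 (gene ID 17988, chr15:66929318-66969641) fell from 130.1 and 142 CPM to 7.89 and 10.1 CPM (log2 fold change -3.91, SE 0.10, adjusted p = 2.82e-20). Egln1, the prolyl hydroxylase that marks HIF-1 alpha for destruction, fell by 2.93 and Bnip3, a mitophagy receptor, by 2.71. Slc2a1, the glucose transporter GLUT1, fell from 1010 and 1028 CPM to 190.1 and 202 CPM, and Pfkp, phosphofructokinase, by 2.33. Car9 was the member that did not pass, at a mean of 0.487 CPM in control. Bnip3 stood at 291 and 279 CPM with A-MYB alone, level with its 286 and 278 CPM in control. Gapdh, Eno1 and Aldoa have near-identical copies elsewhere in the genome, between which counting may split reads.

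Ldha promoter, shown as the promoter of a glycolytic gene with a large loss in level (RefSeq, GRCm38.p6, chr7:46845554-46845853, plus strand, the first of 2 promoters listed); capitals mark ACGTG, the core of the hypoxia response element, on either strand, where overlapping matches join as CACGTG:
Ldha: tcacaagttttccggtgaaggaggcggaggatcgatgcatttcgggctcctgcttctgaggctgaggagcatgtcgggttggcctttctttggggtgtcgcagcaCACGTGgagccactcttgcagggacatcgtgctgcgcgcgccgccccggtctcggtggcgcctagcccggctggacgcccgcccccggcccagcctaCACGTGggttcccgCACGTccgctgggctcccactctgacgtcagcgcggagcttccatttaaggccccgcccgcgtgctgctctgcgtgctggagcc

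ACGTG was in 15 of the 26 glycolysis and hypoxia promoters listed (57.7%), against 25.3% of the promoters of all genes tested and 21.2% of all promoters matched.

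Cholesterol synthesis fell as completely. Of 22 genes tested 21 fell, 16 of them at least 2-fold, and 0 rose, with a median log2 fold change of -1.26 (-0.62 with Dox and -0.35 with A-MYB). Over all genes tested 30.4% fell, 6.38% at least 2-fold. Hmgcs1, which makes HMG-CoA, fell from 306 and 311 CPM to 76.7 and 72.6 CPM (log2 fold change -2.05, SE 0.06, adjusted p = 2.81e-19), and Dhcr7, the last step of cholesterol synthesis, from 111 and 121 CPM to 26.3 and 24.7 CPM (-2.18). In both genes each single treatment lay between control and the combination. Srebf2, the transcription factor of the pathway, fell from a mean of 301 to 150 CPM.

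The 10 largest decreases by ratio came from genes of several kinds. Loxl2, a lysyl oxidase that crosslinks collagen, fell from 25.4 and 25.4 CPM to 1.46 and 0.860 CPM (log2 fold change -4.45, SE 0.22, adjusted p = 1.40e-12). A2m, a secreted protease inhibitor, fell from 130.5 and 130.3 CPM to 8.65 and 10.1 CPM, and Ndrg1 is given above. Igfbp5, a binding protein of insulin-like growth factors, Adm2, a peptide hormone, Sfrp5, a secreted Wnt antagonist, Nxph4, a neurexophilin, and Aoc3, an amine oxidase, fell, with log2 fold changes of -4.14, -4.05, -3.95, -3.84 and -3.80. Fam183b and Ppp1r3g, a glycogen-targeting subunit of protein phosphatase 1, fell as well, at -4.46 and -4.15. All 10 were at lower levels with each treatment alone than in control, and Igfbp5 and Sfrp5 did not pass with A-MYB alone.

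Most chaperone genes also fell, where 30.4% of all genes tested fell and 33.5% rose. Of 18 chaperones of the endoplasmic reticulum (ER) 16 fell and 0 rose (median -0.78), among them Hsp90b1, from 846 and 779 CPM to 232 and 226 CPM, Pdia6 and Pdia3, protein disulfide isomerases, and Hspa5, the chaperone BiP, from 706 and 639 CPM to 256 and 272 CPM. Of 18 heat shock genes 15 fell and 2 rose (median -0.64), and 1 rose when any 1 library was left out. Hspa8, the constitutive HSP70, fell from 3288 and 3183 CPM to 1558 and 1615 CPM, and Hspd1, the mitochondrial chaperonin, by a log2 of 1.65; Hsp90ab1 and Hspb1 fell by 0.89 and 1.13. Hspa8 did not pass with either treatment alone (log2 fold changes -0.11 and -0.12).

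Members of the integrated stress response moved in both directions. Of 22 genes tested 14 fell, 12 of them at least 2-fold, and 4 rose (median -1.07). Over all genes tested 30.4% fell, 6.38% at least 2-fold, and 33.5% rose. Shmt2, Psat1 and Phgdh, enzymes of serine and one-carbon metabolism, fell by a log2 of 1.41, 1.06 and 1.16, and Nupr1, a stress-induced chromatin protein, fell from 20.3 and 21.7 CPM to 3.07 and 3.17 CPM. Ddit4, an inhibitor of mTORC1, fell by 1.41. By contrast Atf4, the transcription factor at the head of this response, rose from 342 and 330 CPM to 441 and 483 CPM, and Ddit3, which encodes CHOP, from 10.3 and 12.8 CPM to 21.4 and 22.3 CPM. Neither of these 2 genes rose with a single treatment.

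Targets of p53 rose: of 20 genes tested 14 rose and 2 fell, with a median of 0.54, beside 33.5% and 30.4% of all genes tested. Eda2r, a receptor of the TNF family, went from 38.5 and 42.7 CPM to 170.0 and 155 CPM (log2 fold change 2.00), Plk2, a polo-like kinase, from 33.5 and 38.04 CPM to 141 and 142 CPM (1.98), and Mdm2, the ubiquitin ligase of p53, from 112 and 117 CPM to 309 and 301 CPM (1.41). Ccng1, cyclin G1, rose by 0.80. Trp53inp1 rose by 1.08 but stood higher with A-MYB alone, at 299 and 266 CPM against 243 and 208 CPM with both. Cdkn1a, the cell cycle inhibitor p21, fell from 212 and 208 CPM to 147 and 156 CPM, and Trp53 itself did not pass (log2 fold change -0.03).

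Genes of cell division fell in the main, where 30.4% of all genes tested fell and 33.5% rose. Of 20 mitotic targets of the MYB-MuvB complex, through which B-MYB drives the G2/M programme, 16 fell and 1 rose (median -0.50): Kif23, a kinesin of cytokinesis, fell from 257 and 259 CPM to 101 and 97.5 CPM, Cdk1 from 364 and 336 CPM to 157 and 173 CPM, and Ccnb1, cyclin B1, and Ube2c by a log2 of 0.85 and 0.88. The member that rose, Bub1, did so by 0.19 and is not counted without control replicate 1, without control replicate 2, without Dox + A-MYB replicate 1 or by DESeq2. Of 32 DNA replication genes 19 fell and 9 rose, by at most a log2 of 0.72 in either direction; Pcna, Rrm1, Rrm2 and Orc1 fell by 0.68, 0.65, 0.72 and 0.69. Their balance turned with total counts scaling, to 7 that fell and 13 that rose. Ribosome biogenesis genes turned too, from 11 that fell and 5 that rose to 7 and 12, and the members that rose were 3 without either control replicate or without Dox + A-MYB replicate 1. Ncl and Npm1, nucleolar proteins, fell by 0.77 and 0.71, and Mycn by 1.16.

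**Figure D4:**
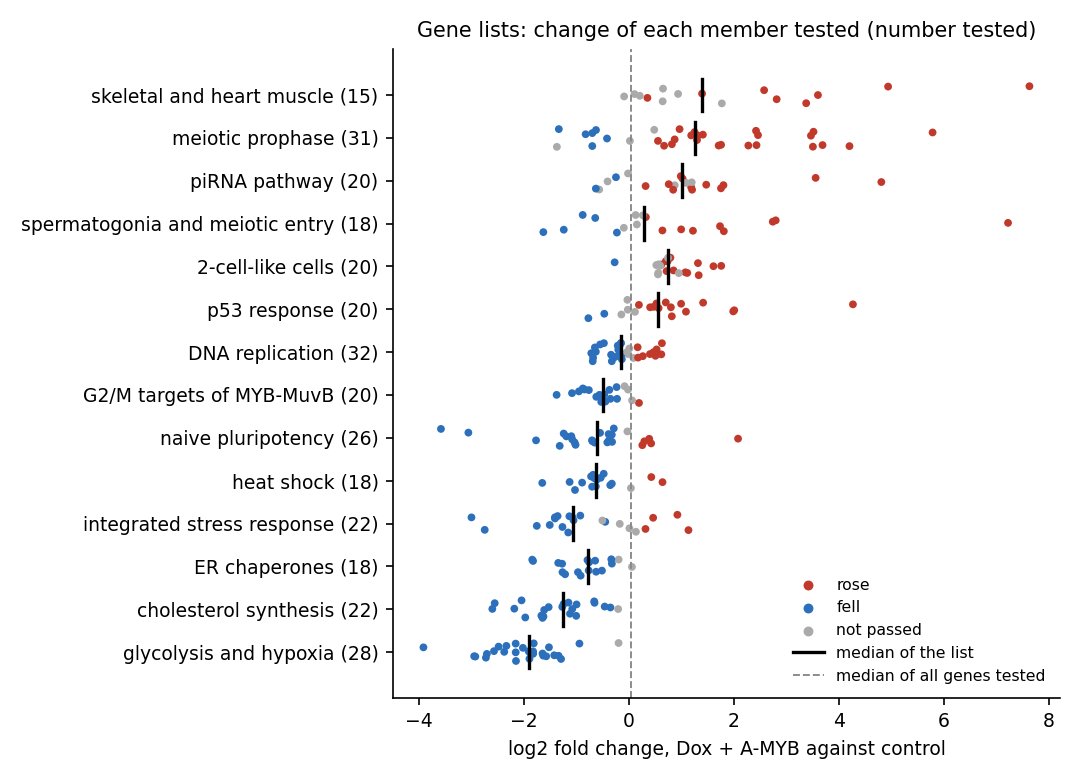
Log2 fold change in Dox + A-MYB against control cells of each member tested in 14 gene lists, coloured by whether it rose, fell or did not pass; black bars are list medians and the dashed line is the median of all 14664 genes tested, 0.05. List medians run from -1.90 for glycolysis and hypoxia to 1.39 for skeletal and heart muscle genes.

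Naive pluripotency genes fell in the main but stayed abundant. Of 26 tested 20 fell, 10 of them at least 2-fold, and 5 rose (median -0.60, against 0.08 with Dox and -0.01 with A-MYB). Over all genes tested 30.4% fell, 6.38% at least 2-fold, and 33.5% rose. Nanog (gene ID 71950, chr6:122707489-122714633) fell from 1014 and 951 CPM to 459 and 499 CPM (log2 fold change -1.04, SE 0.06, adjusted p = 5.23e-14), with 1001 and 1009 CPM under Dox and 928 and 972 CPM under A-MYB. Sox2, Klf4, Esrrb and Dppa5a fell by a log2 of 0.65, 0.41, 0.39 and 0.70. Pou5f1, which encodes OCT4, stood at 1616 and 1468 CPM in control and 1145 and 1378 CPM with both treatments; its fall of 0.29 did not pass under total counts scaling (adjusted p = 0.565), nor did those of Zfp42 and Sall4. The deepest falls were in Lefty1 and Lefty2, Nodal antagonists, from 85.3 and 85.4 to 6.31 and 7.95 CPM and from 428 and 435 to 52.3 and 51.2 CPM, and in Tdgf1, the Nodal co-receptor, by 1.77. Dppa3, a maternal factor also of germ cells, rose from 17.0 and 17.2 to 66.8 and 77.4 CPM.

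Genes of other early lineages moved in both directions, as did all genes tested, of which 33.5% rose and 30.4% fell. Of 13 formative or primed genes 6 rose and 4 fell (median 0.13), with Cldn6, a claudin, at 7.34 and 7.96 CPM against 23.3 and 25.6 CPM; Fgf5, a defining marker of the primed state, had 0 counts in all 8 libraries. Of 13 mesoderm genes tested 2 rose and 5 fell, including Eomes, from 24.8 and 23.7 to 10.1 and 8.87 CPM. Without control replicate 1 these counts were 1 and 3. Of 11 neuroectoderm genes 3 rose and 4 fell: Tubb3 fell from 256 and 251 to 51.8 and 52.0 CPM and Pax6 rose from 0.554 and 0.272 to 3.88 and 4.09 CPM. Of 13 endoderm genes 6 rose and 4 fell, with Dab2, an endocytic adaptor, up by 2.79 and Col4a1, a basement membrane collagen, down by 2.35. Of 13 trophoblast genes 8 rose and 5 fell; Fgfr2 rose from 0.935 and 0.971 to 14.5 and 12.7 CPM and Krt8 fell from 34.4 and 32.4 to 11.7 and 14.6 CPM. Without control replicate 1 the trophoblast genes that rose were 5, and the genes that fell were 3 without control replicate 2 or without Dox + A-MYB replicate 1. The defining markers Afp, Elf5 and Foxa2 had means of at most 0.117 CPM in both groups.

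Genes that mark 2-cell-like cells, a rare state of ES cultures that resembles the early embryo, rose modestly. Of 20 tested 12 rose and 1 fell, beside 33.5% and 30.4% of all genes tested. The median of the 20 with both treatments, 0.74, was near the 0.67 with Dox alone, against 0.02 with A-MYB alone. Zscan4d went from 7.96 and 7.69 to 12.9 and 12.8 CPM and Tmem92 from 2.35 and 1.98 to 5.52 and 5.40 CPM, beside 6.75 and 5.88 CPM with Dox. Usp17le and Usp17la, ubiquitin hydrolases, rose by a log2 of 1.11 and 1.31. The Zscan4 and Usp17l genes are near-identical copies, so that each member's value is uncertain.

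Some markers of differentiated tissues rose while defining ones stayed at or near 0. Over all genes tested 33.5% rose and 30.4% fell, and the share of blood and immune genes that rose was near the first value. Of 25 skeletal and heart muscle genes 15 were tested, of which 8 rose and 0 fell (median 1.39). Actn2, the alpha-actinin of the sarcomere, went from 2.32 and 2.99 to 30.3 and 33.8 CPM (edgeR adjusted p = 3.04e-16), Tnnt1, a troponin, from 4.68 and 4.47 to 25.1 and 29.4 CPM, and Ttn, titin, from 20.2 and 24.7 to 61.4 and 56.0 CPM. The muscle regulators Myf5 and Myf6 had 0 counts in control and Dox + A-MYB libraries, and Myod1 and Myog had means of 0.0735 and 0.396 CPM with both treatments. Of 13 blood and immune genes tested 5 rose and 2 fell, and the members that fell were 1 without either control replicate and 0 without Dox + A-MYB replicate 1. Itgam, an integrin of myeloid cells, went from 0.312 and 0.427 to 7.33 and 7.77 CPM, but Ptprc, the pan-leukocyte marker CD45, had 0 counts in control and a mean of 0.0294 CPM with both treatments.

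Of 20 neuronal genes 8 rose and 8 fell, beside 33.5% and 30.4% of all genes tested. Cplx3, among those that rose, passed the filter on low counts only through the Dox + A-MYB libraries. Its rise therefore adds nothing to this count. Grin1, a glutamate receptor subunit, fell from 77.4 and 80.6 to 16.4 and 14.7 CPM, Stmn2 and Nefh by a log2 of 1.49 and 1.04, and Kcnt1, a potassium channel, rose from 0.173 and 0.272 to 5.43 and 4.75 CPM. The neuronal genes that rose were 4 without control replicate 1 and 5 without Dox + A-MYB replicate 1 or by DESeq2. Among 7 liver genes tested 4 rose and 0 fell. Hpx, among those that rose, also passed the filter only through the Dox + A-MYB libraries and adds nothing to this count. Hpx, hemopexin, was at 0 in control and at 0.672 and 0.979 CPM with both treatments, at least 15.0-fold higher, and Ahsg, fetuin, rose by 1.37; the rise of F2, prothrombin, did not pass without Dox + A-MYB replicate 2, nor that of Apob without control replicate 1 or without Dox + A-MYB replicate 1. Of 9 epidermal genes 4 rose and 3 fell, and the falls of Tgm1, a transglutaminase, and Sfn, by 0.38 and 0.33, did not pass with total counts. Trp63, a master factor of the epidermis, rose from 0.0693 and 0 to 1.46 and 0.920 CPM and Ppl, periplakin, by 1.40. Without control replicate 2 the epidermal genes that rose were 2.

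Markers of possible admixed cells moved in both directions, as did all genes tested, of which 33.5% rose and 30.4% fell. Of 10 fibroblast feeder genes tested 3 rose, all of them at least 2-fold, and 6 fell, 5 of them at least 2-fold. The highest log2 fold change among those tested was 4.92. The summed level of the list of 20, most of it from Fn1 and Vim, went from 1493 and 1582 CPM to 1010 and 974 CPM. Vim, vimentin, fell from 263 and 259 to 66.4 and 61.8 CPM, and Fn1 and Col5a1 by a log2 of 0.44 and 1.26. Postn, Lox and Fap had means of at most 0.0148 CPM. Of 11 testis somatic genes 2 rose, Cyp11a1, by 2.94, and Myh11, by 2.26, and 1 fell, Clu, by 1.18; the rise of Myh11 did not pass without control replicate 1 (adjusted p = 0.0766). Myh11 passed the filter on low counts only through the Dox + A-MYB libraries, so its rise adds nothing to the count of testis somatic genes. Rhox5, at 33.0 and 28.7 against 24.5 and 29.4 CPM, did not pass, and both groups overlapped.

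Genes that silence retroviruses and germline genes changed by less than 2-fold, E2f6 apart. Of all genes tested 30.4% fell and 33.5% rose. Of 23 genes of retrovirus silencing 12 fell and 4 rose, 0 of them by 2-fold (median -0.16); with total counts 9 fell and 10 rose, and without control replicate 1 or Dox + A-MYB replicate 1 the members that rose were 2. Uhrf1, which maintains DNA methylation, fell from 1013 and 1019 to 501 and 519 CPM, and the histone methyltransferase Ehmt2, the heterochromatin protein Cbx3 and the demethylase Kdm1a fell by a log2 of 0.91, 0.83 and 0.66. Of 17 repressors of germline genes 10 fell and 3 rose (5 and 3 with total counts): E2f6 and Mga, of the variant Polycomb complex PRC1.6, rose by 1.37 and 0.83, while Chd4, of the NuRD complex, and Tfdp1 fell by 0.60 and 0.58. Mga was about as high with either treatment alone, at 466 to 537 CPM against 582 and 503 CPM with both. Of 10 interferon response genes 3 rose and 4 fell, beside 33.5% and 30.4% of all genes tested. Ddx58, the RNA sensor RIG-I, rose from 16.9 and 16.2 to 57.8 and 51.1 CPM, whereas Ifitm3 and Oas1a fell by 1.10 and 0.59. The strongly inducible genes Isg15 and Ifit1 had 0 counts in control and means under 0.05 CPM with both treatments.

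The single treatments show how the combined change is composed. They share the control libraries with it, so their values are set side by side only. With Dox alone 17.9% of genes tested rose and 14.3% fell, and with A-MYB alone 19.5% and 15.2%. Of the 2149 genes that rose at least 2-fold with both, 428 rose in each single-treatment group, 278 with Dox only and 184 with A-MYB only, and 1245 (57.9%) passed with neither. Of the 936 genes that fell at least 2-fold, 475 (50.7%) fell in each and 222 (23.7%) passed with neither. The 1245 genes had a median log2 fold change of 0.39 with Dox, 0.27 with A-MYB and 2.03 with both. Against the Dox libraries and against the A-MYB libraries 904 of them were also higher by the same test, a criterion that 22% of all genes tested met. The interaction, the Dox effect in the presence of A-MYB minus that in its absence, was above 0 and passed for 446 of them, beside 16.4% of all genes tested. These genes were chosen on the same libraries for a high value with both treatments and no call with either, which favours both counts, so nothing is read from them against the background. For the other members of the 1245 the log2 change was not shown to exceed the sum of the single changes. Without a fold limit 2440 genes rose with both and passed with neither.

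Itga11, a collagen-binding integrin (gene ID 319480, chr9:62677855-62783979), had the largest log2 fold change of the genes that passed with neither treatment alone, among those with an average log2 CPM of at least 0. It stood at 0 and 0.155 CPM in control, 0.151 and 0.344 CPM with Dox, 0.183 and 0 CPM with A-MYB, and 5.199 and 6.65 CPM with both (log2 fold change 6.25, SE 0.64, adjusted p = 1.91e-08). Gucy2g, a guanylyl cyclase, went from 0.104 and 0.117 to 4.18 and 3.41 CPM (5.06), with at most 0.367 CPM in a single-treatment library. The testis genes Tmem202, Lrrc36 and Fam227a reached 3.13 and 3.35, 4.41 and 4.45, and 3.33 and 4.39 CPM. Hist1h2aa, an H2A histone of germ cells, rose by 4.03. In all 6 the Dox + A-MYB libraries lay above the other 6 libraries without overlap. Itga11, Tmem202, Gucy2g and Hist1h2aa passed the filter on low counts only through the Dox + A-MYB libraries. All 6 genes were also ranked by this same fold change. Their separation and adjusted p-values therefore describe the choice and are no independent test.

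**Figure D5:**
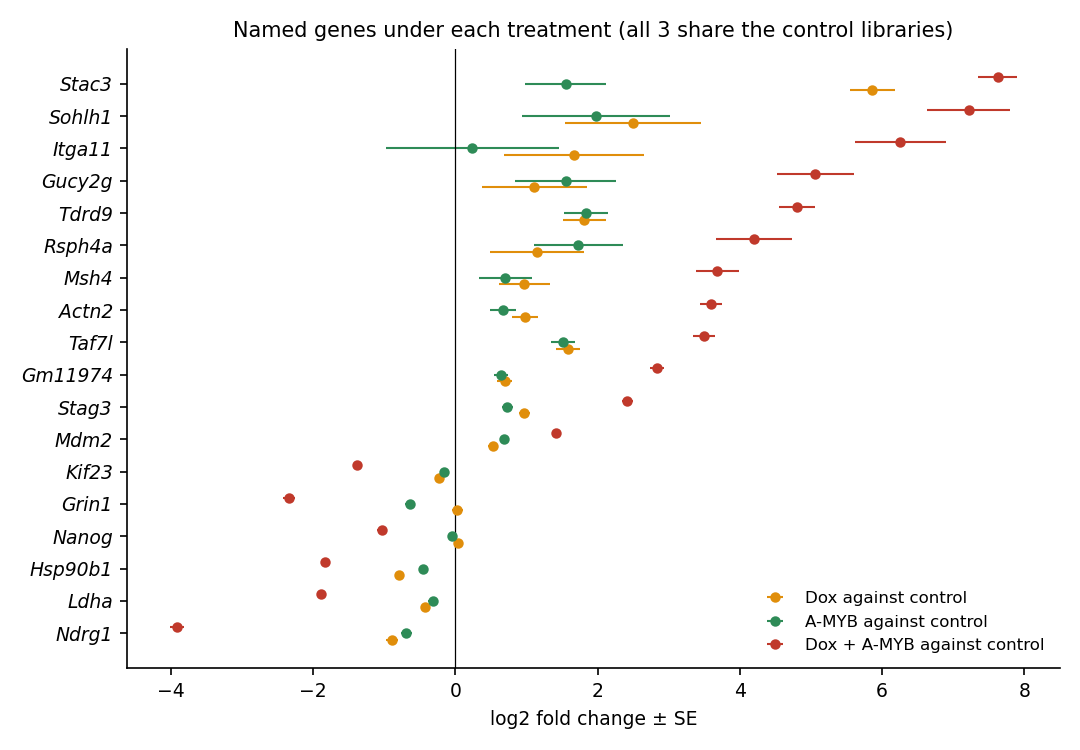
Log2 fold change with its SE of 18 named genes with Dox (orange), A-MYB (green) and both (red), each against the same 2 control libraries. For Nanog the single values are 0.03 and -0.05 and the combined one is -1.04; for Stac3 the Dox value, 5.86, lies closest to the combined one, 7.63.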

How the data were processed

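Poly(A) RNA of ES cells was sequenced from stranded libraries. The deposited files hold raw counts, whole reads per gene symbol, made by the authors. Tools listed without settings, per the submitters' processing notes, are HISAT2 2.1.0, HTSeq, bcl2fastq 2.20.0, MACS 1.4.2 and Bowtie2 2.3.3.1, with the build mm10. Reads in the 5 special lines (no feature, ambiguous, not unique and the like), 17.2% to 19.5% of all reads, stayed out. The spermatocyte peak lists were not used here.

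All 8 ES cell libraries were fitted in 1 model with edgeR 4.0.16 (filterByExpr, TMM scaling, glmQLFit robust, glmQLFTest, two-sided; 4 residual degrees of freedom; R 4.3.3, limma 3.58.1), of which 14664 of 23420 genes were tested. P-values were Benjamini-Hochberg adjusted over all genes tested. SEs were derived from the F statistic as |log2 fold change| / sqrt(F). A fold against 0 control counts is a bound that sets the group at 3 counts, and ratios against 1 to 3 control counts carry exact 95% intervals. These cover counting error only. Replicates differed by more than sampling noise. Chi-square per degree of freedom was 13.7 in Dox + A-MYB, 7.93 in control, 8.09 in A-MYB and 5.41 in Dox libraries. The fit pools the spread over the groups, so it may understate that of the Dox + A-MYB libraries.

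The comparison, the members, the 31 gene lists (705 genes, 539 tested) and the rules were chosen with earlier results of these data known. Named genes are Mybl1, the 12 most abundant genes at 0 in control, the 10 largest increases and decreases by ratio (passed, average log2 CPM of at least 0, no overlap, a count in the lower group), the 8 largest gains and losses in level among genes past 2-fold, the 6 largest increases that passed with neither treatment alone (average log2 CPM of at least 0), and in each list at most 4 genes that rank first by p. Other list members were named after their values were seen. Symbols were matched to RefSeq GRCm38.p6 (23259 of 23420), which gave gene coordinates and promoters. The alternatives were DESeq2 1.42.0 (test or size factors), total counts and upper-quartile scaling, no filter or at least 1 CPM in 2 libraries, 4 libraries only, a replicate block, other detection limits, and leaving out each library. Some members of the lists are not reported here.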

Additional observations from a re-analysis of the deposited data

Results flagged for a closer look

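Over all genes tested, the interaction was above 0 and passed for 16.4% (edgeR, Benjamini-Hochberg adjusted p under 0.05). By the same test the Dox effect was larger with A-MYB than without it for 446 of 1245 selected genes. The 1245 are the genes that rose at least 2-fold with both treatments and passed with neither alone. Among the 6 named genes of this kind the interaction was a log2 of 4.35 for Itga11 (adjusted p = 0.0308) and 2.59 for Hist1h2aa (adjusted p = 0.0364). For Tmem202, Gucy2g, Lrrc36 and Fam227a it was 2.89, 2.39, 2.78 and 1.91 and did not pass (adjusted p = 0.113, 0.0518, 0.0521 and 0.0613). The genes were chosen on the same libraries for a high value with both treatments and no call with either, which favours an interaction above 0, so these values describe the choice and are no independent test. All of these genes stood under 1 CPM in control and single-treatment libraries.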

How the results depend on the processing

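With total counts scaling 2796 genes fell in place of 4462, and 585 fell at least 2-fold in place of 936, as the median of all genes moved from 0.05 to 0.28. Of 178 named genes that passed, 168 kept their direction and call under every alternative that tested them. Rhox5, which had not passed, reversed with total counts, to a log2 of 0.040. The genes silent in control and detected with both treatments were 189 at 5 counts and 36 at 20 counts in place of 87 at 10, and 126 to 172 when a library was left out, the 2 highest, 172 and 171, without control replicate 1 or 2, where silence rests on 1 library. Leaving out each library in turn left 3975 to 4389 genes that rose, 4154 to 4473 that fell, 1909 to 1989 and 942 to 1027 at 2-fold, and 2001 to 2579 that passed with neither treatment alone; the lone library was then assumed to vary like the other groups. The replicate numbers do not pair the samples (correlation of deviations -0.0269 between the groups compared), and with the replicate block 4971 genes rose, 4516 fell, 2133 rose and 932 fell at least 2-fold and 2412 passed with neither alone. Depth limits the silent genes: 3 counts over a group are 0.0549 CPM.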

Other observations

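Gene families defined by symbol were chosen after their values were seen. Of 51 histone genes tested 34 rose, all of them at least 2-fold, and 0 fell, with a median log2 fold change of 1.65 against -0.19 with Dox and 0.38 with A-MYB. These genes were low, at a median control level of 0.577 CPM. The share that rose at least 2-fold was 66.7%, beside 14.7% of all genes tested. It was 41.4% in the lowest level group of all genes tested, described below for Hox genes. The share of all gene counts taken by histone genes went from 0.0106% and 0.0112% to 0.0482% and 0.0502%. Replication-dependent histone mRNAs lack a poly(A) tail, and these libraries were made from poly(A) RNA, so the counts cover the polyadenylated part; many of the genes are also near-identical copies. Of 84 cytosolic ribosomal protein genes 77 fell and 2 rose, 0 of them by 2-fold (median -0.46; 58 fell with total counts). Of 22 tubulins 13 fell, 11 of them at least 2-fold, and 5 rose, 1 of them at least 2-fold. Of 345 zinc finger genes named Zfp, 181 rose and 50 fell (median 0.37), beside 33.5% and 30.4% of all genes tested. Of 31 Hox genes 14 rose and 1 fell (median 0.94 at a median control level of 0.620 CPM). The share of Hox genes that rose at least 2-fold, 41.9%, was that of low genes in general. It was 41.4% in the lowest of 5 groups of all genes tested, ranked by level in the Dox and A-MYB libraries, with a median of 1.01. No chromosome stood far from the rest: between 12.7% and 17.9% of the genes tested on each of 1 to 19 and X rose at least 2-fold.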
